A study of Mus musculus with 6 samples.

Results

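Aminoacyl-tRNA synthetases are the enzymes that load each amino acid onto its own tRNA, and the 36 genes described here encode 20 cytosolic and 16 mitochondrial members of this family. They were taken by name from a count table of 13709 gene rows, in which all 36 were present and all 36 passed the filter on low counts (the methionine enzyme Mars was listed as Mars1). Expression was measured by bulk RNA-Seq of CD4+YFP+CD25+ Tregs, the CD4+ T cells that express Foxp3 and restrain other T cells, from 3 WT and 3 KO samples of C57BL/6 mice. Per the study's methods WT mice were Foxp3Cre, KO mice were Foxp3Cre Zfp335fl/fl and all were 2 weeks old, whereas the labels call the controls wild type littermates without naming a Cre. Cre and YFP are made from the Foxp3 locus, so the floxed Zfp335 gene is deleted in Foxp3-expressing cells of KO mice. Sorting on YFP needs the allele in the controls too, but the labels do not state it. The labels named both lymph nodes and spleen as the source of the cells. They did not say whether a sample was 1 mouse or a pool, and if samples of a group were not separate mice, the p-values measure technical spread only.

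Cytosolic synthetases supply charged tRNA to the ribosomes that translate nuclear genes, and several of them sit together in a multi-synthetase complex held by scaffold proteins. Mitochondrial synthetases are encoded in the nucleus, imported, and charge the tRNAs used to translate the few proteins of the mitochondrial genome. Glycine and lysine are exceptions, since Gars and Kars each give rise to the cytosolic and the mitochondrial enzyme. Cells that lack amino acids accumulate uncharged tRNA, which the kinase Gcn2 senses, and the transcription factor ATF4 made in response binds with C/EBP partners to a composite element in the promoters of many amino acid genes, several synthetase genes among them.

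That element, TGATGNAA on either strand, was looked for in RefSeq promoter windows (GRCm38.p6) that run from 250 bases before to 50 bases after a transcript start. Windows were found for 27 of the 36 genes, and they were 28 in number because a gene can have several starts. The element was present in 5 of 13 windows of cytosolic synthetases (38.5%), in 0 of 15 windows of mitochondrial synthetases, and in 3.97% of all 32851 windows. No window was found for Cars, Hars, Lars, Nars, Rars, Vars, Wars, Hars2 and Pars2. The 60 bases around each match are shown because matches were found in these windows of some cytosolic genes and of no mitochondrial gene. They are written 5′ to 3′ on the strand of the gene, with the element in capitals, at chr8:111033704-111033763 and chr8:111033825-111033884 (Aars, + strand), chr6:55037945-55038004 (Gars, +), chr13:49682111-49682170 (Iars, +), chr15:11399640-11399699 (Tars, - strand) and chr4:129189880-129189939 (Yars, +).
Aars, upstream match: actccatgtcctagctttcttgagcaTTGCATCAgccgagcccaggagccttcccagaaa
Aars, match after the start: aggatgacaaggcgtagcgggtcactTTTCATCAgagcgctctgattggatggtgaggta
Gars: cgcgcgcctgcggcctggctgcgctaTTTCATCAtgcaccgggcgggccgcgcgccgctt
Iars: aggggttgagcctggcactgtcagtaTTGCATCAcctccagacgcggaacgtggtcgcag
Tars: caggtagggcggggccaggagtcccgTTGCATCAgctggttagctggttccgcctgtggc
Yars: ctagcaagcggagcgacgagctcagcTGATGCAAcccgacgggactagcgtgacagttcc
The element lay on the strand opposite to the gene in every stretch but that of Yars. Its first base was 112 bases before and 10 bases after the start in Aars, 30 and 15 bases before it in Gars and Tars, and 8 and 4 bases after it in Iars and Yars, counting the start as 1.

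Other motifs were searched in the same windows, and none of them overlapped the element above. The E-box CACGTG, read by Myc and related factors, was found in 4 of 13 cytosolic windows (Aars, Farsb, Iars and Tars), in 1 of 15 mitochondrial windows (Ears2) and in 7.15% of all windows. TGCGCATGC, the core bound by NRF1, which drives many nuclear genes for mitochondrial proteins, was in the window of Rars2 and in 1.52% of all windows. A match is a description of these letters in this window, and it does not show that a factor binds there.

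The 6 libraries held 32032631 to 40728419 counts, and 3 counts, the level taken here as distinguishable from 0, corresponded to 0.0747 to 0.0913 CPM, which covers counting error only. CPM scales the count of a gene to the size of its library after TMM correction. Zfp335 fell in KO (log2 fold change -1.37, SE 0.073, edgeR adjusted p = 2.14e-05). WT replicate 3 stood apart from WT replicates 1 and 2 on the second principal component, which held 18.4% of the variance. Of 6 Treg markers, Foxp3 (642.1 to 1190 CPM across WT, 459.7 to 472.3 CPM across KO) and Ikzf2 were called lower. Il2ra, at 903.5 CPM or more in every library, was not called, nor were Cd4, Cd3e and Ctla4. With no fold cutoff, Cd4 rose (log2 fold change 0.26, edgeR adjusted p = 0.0143) and Cd3e fell (-0.45, edgeR adjusted p = 0.0114). Ctla4 had 507.2, 509.2 and 920.5 CPM in WT and 505.3, 478.8 and 477.4 CPM in KO. Its log2 fold change of -0.41 did not pass (edgeR adjusted p = 0.185). The 6 myeloid markers summed to 16.6 to 27.8 CPM in WT and to 49.9 to 59.1 CPM in KO, where 5 of 6 were called higher, and S100a8 and S100a9 were at 0 in every WT library. The 4 dendritic markers summed to 54.2 to 93.8 CPM in WT and 135 to 156 CPM in KO, with 3 called higher. Markers of B cells (18 to 20.1 CPM in WT, 12.1 to 12.6 CPM in KO), NK cells (at most 5.05 CPM), CD8 T cells (at most 13.2 CPM) and red cells (at most 67.1 CPM) were low in both groups. Among them the B cell gene Cd79b was called lower, and Klrb1c of NK cells and Cd8a of CD8 T cells were called higher. Of 3 plasma cell markers, Jchain was called higher, at no more than 2.241 CPM in any library, and Xbp1 and Sdc1 did not pass. Over all genes 11.9% were called higher and 12.5% lower. The part of any of these cell types in the results below was not tested. In bulk RNA, a change in the share of cells that express a gene and a change in its RNA per cell cannot be told apart.

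The first comparison was KO against WT for each synthetase. Cytosolic synthetases were mostly higher in KO Tregs. The fold change was above 1 in 18 of 20, and the log2 fold changes had a median of 0.42 (range -0.05 to 0.91), against -0.04 over all 13594 genes tested. By the study's cutoffs (fold above 1.5, p under 0.05, adjusted p under 0.1), 5 of 20 cytosolic genes were called higher and 0 lower by edgeR, and the same numbers by DESeq2. Of all genes 24.4% were called by edgeR, 11.9% higher and 12.5% lower. The share of cytosolic genes called in either direction was thus near that of all genes, and only the direction differed. With no fold cutoff, 16 of 20 rose at an edgeR adjusted p under 0.05 (17 by DESeq2), and 0 of 20 fell by either tool or at an unadjusted p under 0.05. Over all genes 38.6% passed by edgeR, 19.2% higher and 19.4% lower. In 18 of 20 cytosolic genes every KO sample was above every WT sample. Among all genes tested the groups did not overlap for 53.8%, with KO above WT in 26.2% and below it in 27.6%.

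Mitochondrial synthetases showed the opposite balance. Of 16 genes, 13 had a log2 fold change below 0 and 3 above, and the median was -0.21, or -0.22 without Lars2. None was called at the fold cutoff by edgeR or by DESeq2, while 8 were lower and 1 was higher at an unadjusted edgeR p under 0.05. The share of all genes at that unadjusted p is not given here, so these counts cannot be set against it. With no fold cutoff, 4 of 16 fell at an edgeR adjusted p under 0.05, also 4 by DESeq2, which is near the 19.4% of all genes that did so, and 0 rose by either tool. KO was below WT without overlap in 7 of the 16 genes and above it in 1, against 27.6% and 26.2% of all genes, and the groups overlapped in 8.

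**Figure D1:**
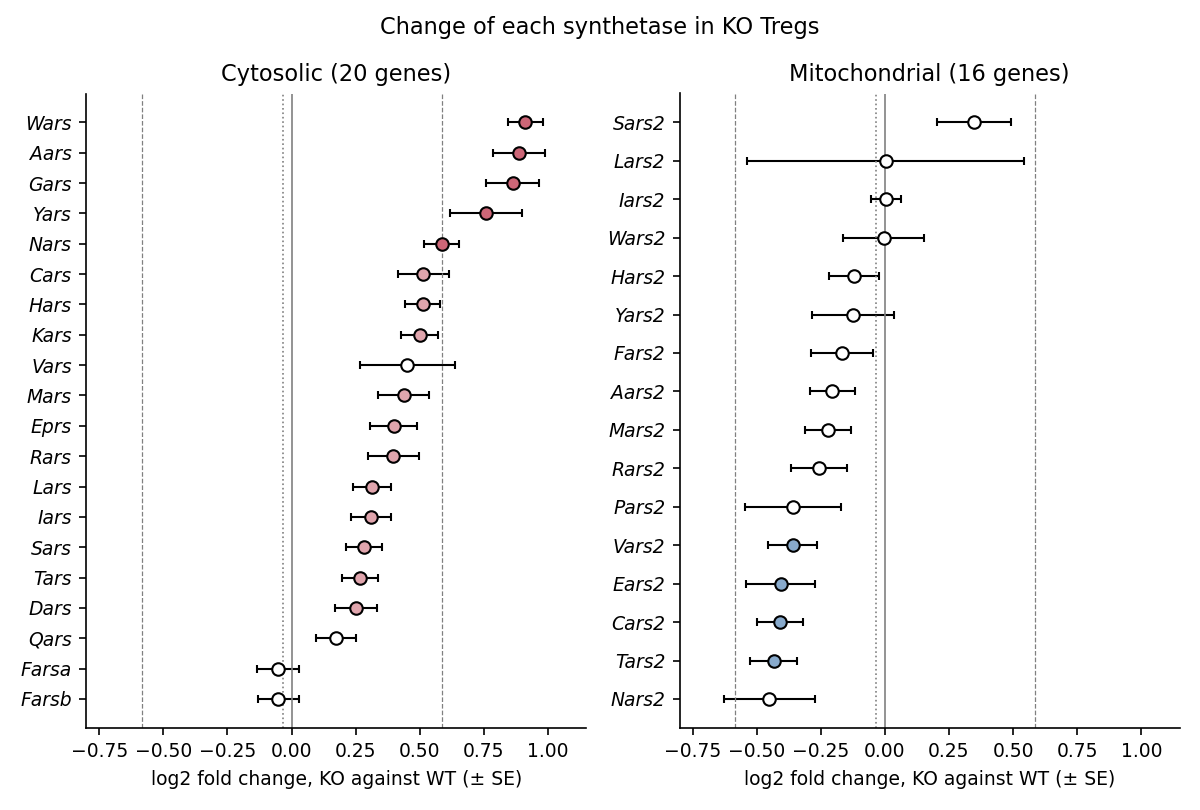
Log2 fold change of each synthetase gene between KO and WT Tregs (x axis, ± SE from edgeR), cytosolic genes on the left and mitochondrial genes on the right. Dark red points passed the fold cutoff of 1.5, light red and blue points had an adjusted p under 0.05 without passing it, open points did neither, the dashed lines mark the fold cutoff and the dotted line the median of all genes (-0.04). Cytosolic genes reach from -0.05 to 0.91, and 13 of 16 mitochondrial genes lie below 0.

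Summed over the 20 cytosolic genes, the CPM came to 2099, 2046 and 2076 in WT libraries 1 to 3 and to 2912, 2812 and 2825 in KO libraries 1 to 3. The 15 mitochondrial genes other than Lars2 summed to 562.1, 532.7 and 538.1 CPM in WT and to 474, 473.5 and 464 CPM in KO. Every KO sum was thus above the WT sums for the cytosolic genes and below them for the mitochondrial genes. The ratio of the sums was 3.73, 3.84 and 3.86 in WT and 6.14, 5.94 and 6.09 in KO. Lars2 was left out of the sums because its counts alone exceeded those of the other 35 genes together in every library but WT replicate 2.

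**Figure D2:**
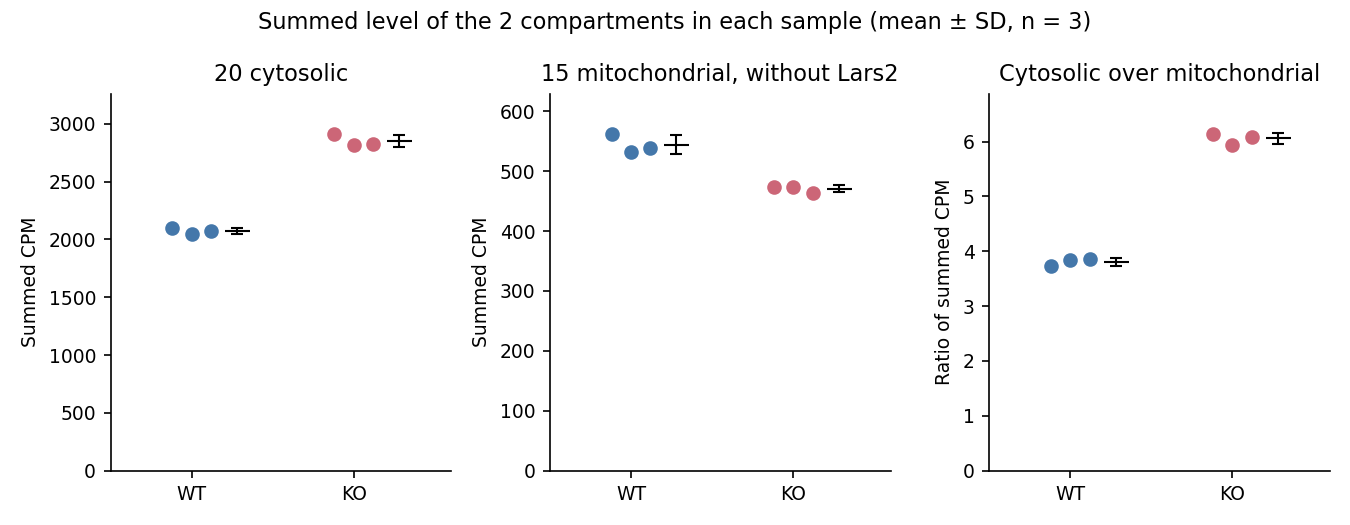
Summed CPM of the 20 cytosolic genes, summed CPM of the 15 mitochondrial genes without Lars2, and their ratio (y axes), with WT and KO on the x axis. Points are the 3 samples of a group, drawn from replicate 1 to replicate 3, and the bar beside them is the mean ± SD; the ratio is 3.81 ± 0.07 in WT and 6.06 ± 0.104 in KO.

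The 5 genes called higher are all cytosolic enzymes outside the multi-synthetase complex. Wars, the tryptophan enzyme, which is known to respond to interferon-gamma, had 79.21, 77.55 and 86.49 CPM in the WT samples and 154.6, 148.6 and 154.2 CPM in the KO samples. All KO samples were well above all WT samples, and the log2 fold change of 0.91 (SE 0.068, edgeR adjusted p = 8.2e-05) was the largest of the family. Wars lies on chromosome 12 at 108860030 to 108894175 (GRCm38.p6) and overlaps the coding gene Wdr25, with which its transcripts shared no stretch of 50 bases. Ifng, the gene of interferon-gamma, chosen after its values were seen, had 3.776, 4.536 and 2.644 CPM in the WT samples and 82.77, 84.68 and 84.44 CPM in the KO samples (log2 fold change 4.52, SE 0.179, edgeR adjusted p = 7.11e-06). All KO samples were far above all WT samples, and the part of interferon-gamma in the Wars level was not tested.

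Aars, which charges tRNA with alanine, had 123.7, 114.4 and 94.84 CPM in the WT samples and 205.8, 199.4 and 210 CPM in the KO samples. The groups were far apart, with the lowest WT value in replicate 3 (log2 fold change 0.89, SE 0.101, edgeR adjusted p = 0.000516). Aars lies on chromosome 8 at 111027778 to 111055569, where it overlaps Ddx19b. Of the 50-base stretches of its longest transcript, 22.4% also occur in transcripts of other genes, mainly Exosc6. Part of its count may thus belong to Exosc6, and the share of reads concerned was not measured.

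Gars, which encodes the glycine enzyme of both compartments, had 110.3, 109.8 and 85.67 CPM in the WT samples and 184.4, 184.7 and 187.2 CPM in the KO samples. The KO samples were nearly equal and all above WT (log2 fold change 0.86, SE 0.103, edgeR adjusted p = 0.000635). The gene lies on chromosome 6 at 55038001 to 55079504 and overlaps no other coding gene.

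Yars, the tyrosine enzyme, on chromosome 4 at 129189734 to 129219240, had 54.55, 51.94 and 37.01 CPM in the WT samples and 79.41, 84.63 and 78.86 CPM in the KO samples. WT replicate 3 was again the lowest, and the groups did not overlap (log2 fold change 0.76, SE 0.14, edgeR adjusted p = 0.00427). Nars, the asparagine enzyme, had 121.8, 116 and 112.1 CPM in the WT samples and 179.9, 179.1 and 166 CPM in the KO samples. Its separation was clear (SE 0.068, edgeR adjusted p = 0.000559), but its fold change of 1.5 sat on the cutoff, and 8 of the alternative fits left it uncalled, with log2 fold changes from 0.49 to 0.62 over all fits.

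**Figure D3:**
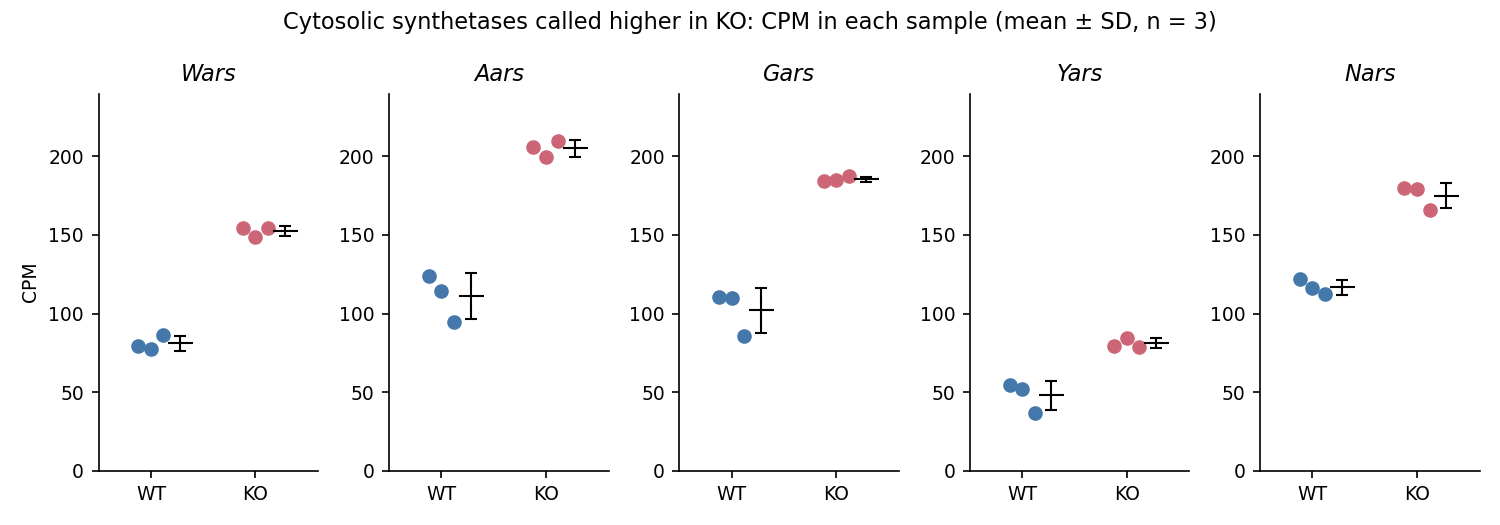
CPM (y axis, from 0) of the 5 cytosolic synthetases called higher in KO, with WT and KO on the x axis. Points are the 3 samples of a group, drawn from replicate 1 to replicate 3, and the bar beside them is the mean ± SD; in each gene all 3 KO samples sit above all 3 WT samples, with means of 152.5 against 81.08 CPM for Wars and 205.1 against 110.9 CPM for Aars.

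Of the other cytosolic enzymes outside the complex, Hars and Cars, for histidine and cysteine, rose by log2 0.51 each, just under the fold cutoff (edgeR adjusted p = 0.00103 and 0.00509). Hars went from 65.75 ± 3.51 to 93.69 ± 2.02 CPM and Cars from 38.58 ± 3.63 to 55.09 ± 4.43 CPM (SD, n = 3). Hars lies head to head with Hars2 and overlaps it, and 7.53% of its 50-base stretches also occur in Hars2. Sars and Tars, for serine and threonine, rose less, by log2 0.28 and 0.27 (edgeR adjusted p = 0.0156 and 0.0184). The element shown above was thus present in genes past the fold cutoff (Aars, Gars and Yars) and under it (Tars and Iars).

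Vars, the valine enzyme and the most abundant cytosolic synthetase by counts, had 255, 225.3 and 390.2 CPM in the WT samples and 395.7, 401.7 and 392.4 CPM in the KO samples. WT replicate 3 stood at the KO level while WT replicates 1 and 2 were far below, and the log2 fold change of 0.45 (SE 0.185) did not pass (edgeR adjusted p = 0.0918). Without WT replicate 3 it was 0.72 (edgeR adjusted p = 1.3e-07), a fit in which 26.6% of all genes rose at an adjusted p under 0.05. With any other sample left out Vars did not pass. Its log2 fold change was 0.37 without WT replicate 1 and 0.29 without WT replicate 2 (edgeR adjusted p = 0.231 and 0.226).

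The phenylalanine enzyme differs from the others in being built from a pair of gene products, Farsa and Farsb, and it was the exception among cytosolic genes. In WT and KO, Farsa had 71.91 ± 3.93 and 69.38 ± 5.45 CPM and Farsb 45.64 ± 1.19 and 44.03 ± 2.97 CPM (SD, n = 3). Both had a log2 fold change of -0.05 with SE 0.083 and 0.08, and the groups overlapped in both. Farsb overlaps Sgpp2 and shares 10.12% of its 50-base stretches with it.

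The 8 cytosolic synthetases of the multi-synthetase complex all had higher values in KO with no overlap between groups, and 7 of them rose at an adjusted p under 0.05, but none reached the fold cutoff. Their median log2 fold change was 0.35, with a range of 0.17 to 0.50, against 0.51 for the 12 enzymes outside the complex. Kars, the lysine enzyme of both compartments, had 178.4, 177.3 and 158.2 CPM in the WT samples and 244.2, 235.7 and 247.1 CPM in the KO samples. It rose most within the complex (log2 fold change 0.50, SE 0.072, edgeR adjusted p = 0.00138). The methionine enzyme Mars (0.44), the fused glutamate and proline enzyme Eprs (0.40) and the arginine enzyme Rars (0.40) followed. The leucine, isoleucine and aspartate enzymes Lars, Iars and Dars had log2 fold changes of 0.31, 0.31 and 0.25, with edgeR adjusted p = 0.012, 0.0164 and 0.042. Qars, for glutamine, went from 159.5 ± 7.2 to 179.8 ± 13.7 CPM (SD, n = 3), which did not pass (edgeR adjusted p = 0.116). Mars overlaps Ddit3, Kars has a pseudogene copy, and Iars shares 8.61% of its 50-base stretches with Gm4849.

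Synthetases fall into classes I and II by the fold of their catalytic domain. The cytosolic members of class I (9 genes) had a median log2 fold change of 0.44 and those of class II (10 genes) a median of 0.39, with Eprs, which holds a domain of each class, counted in neither. In the mitochondrial genes the medians were -0.22 for class I and -0.20 for class II. The split by compartment was therefore present within each class.

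Levels can be compared between genes only per length, for which TPM values, which divide the count by transcript length, were computed with the longest GENCODE transcript of each gene. The median level of cytosolic synthetases was 74.2 TPM in WT and 107 TPM in KO, and that of the mitochondrial genes without Lars2 was 18.9 and 16.1 TPM. Kars (195 ± 19.3 TPM in WT, 271 ± 5.63 TPM in KO), Vars (192 ± 52.4 and 260 ± 4.2 TPM) and Gars (118 ± 19.8 and 211 ± 0.78 TPM) were the highest cytosolic genes over the 6 samples. The lowest in WT was Cars at 33 ± 3.48 TPM. After Lars2, Tars2 (96.7 ± 8.81 and 70.5 ± 3.78 TPM) and Iars2 (54 ± 1.96 and 53.2 ± 1.31 TPM) were the highest mitochondrial genes, and Mars2, at 5.78 ± 0.128 TPM in WT, was the lowest, with an annotated transcript of 11294 bases behind that value.

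Among mitochondrial synthetases, the 4 that fell at an adjusted p under 0.05 were Tars2, Cars2, Ears2 and Vars2. Tars2, for threonine, had 123.2, 115.3 and 142.9 CPM in the WT samples and 98.18, 95.08 and 89.04 CPM in the KO samples. KO kept 74% of the WT mean, and no KO sample reached a WT sample (log2 fold change -0.43, SE 0.092, edgeR adjusted p = 0.00776). Cars2, for cysteine, had 43.74, 41.41 and 37.52 CPM in the WT samples and 30.57, 29.4 and 32.51 CPM in the KO samples, which was 75.4% of WT (log2 fold change -0.41, SE 0.09, edgeR adjusted p = 0.00946). Tars2 and Cars2 were the mitochondrial genes whose adjusted p stayed under 0.05 in all 15 fits that tested for any change, edgeR on all samples included. The fit with glmTreat, which tests against a fold of 1.5, is not among the 15 and called neither gene.

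Ears2, which charges glutamate and also supplies the mitochondrial glutamine tRNA by way of an amidation step, had 15.24, 13.94 and 14.96 CPM in the WT samples and 9.553, 11.13 and 12.62 CPM in the KO samples (log2 fold change -0.41, SE 0.136, edgeR adjusted p = 0.0476). Vars2, for valine, had 58.62, 55.29 and 48.94 CPM in the WT samples and 39.14, 43.33 and 44.53 CPM in the KO samples (log2 fold change -0.36, SE 0.095, edgeR adjusted p = 0.0195). In both, the KO samples were below the WT samples, though the adjusted p passed 0.05 in 7 and 10 of 15 fits. Vars2 shares 3.61% of its 50-base stretches with Gm20483.

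The other mitochondrial genes did not pass an adjusted p of 0.05. Nars2, for asparagine, had the lowest log2 fold change of the family (-0.45, SE 0.179, edgeR adjusted p = 0.083), with WT at 9.702 ± 0.317 CPM and KO at 7.097 ± 1.53 CPM (SD, n = 3). Mars2, Aars2 and Rars2 had log2 fold changes of -0.22, -0.20 and -0.26, with edgeR adjusted p = 0.0856, 0.103 and 0.102. The groups did not overlap in Nars2, Mars2 and Aars2 and overlapped in Rars2, a gene that also overlaps Orc3. Pars2, for proline, had 12.52, 11.23 and 7.901 CPM in the WT samples and 8.294, 8.612 and 7.8 CPM in the KO samples. WT replicate 3 lay within the KO range, and the log2 fold change of -0.36 (SE 0.188) did not pass (edgeR adjusted p = 0.173). Without WT replicate 3 it was -0.53 (edgeR adjusted p = 0.00545). With any other sample left out Pars2 did not pass. Its log2 fold change was -0.22 without WT replicate 1 and -0.32 without WT replicate 2 (edgeR adjusted p = 0.435 and 0.31). Fars2, Yars2 and Hars2 had log2 fold changes of -0.17, -0.12 and -0.12, each with overlapping groups.

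Iars2, for isoleucine, had overlapping groups, at 107.6, 105.2 and 109.3 CPM in the WT samples and 109.6, 107.9 and 105.2 CPM in the KO samples. Its log2 fold change was 0.003 with an SE of 0.059, the smallest of the mitochondrial genes. Part of that count may belong to Rab3gap2, which overlaps Iars2 and shares 36.61% of its 50-base stretches. Wars2 had a log2 fold change of -0.005 (SE 0.157). Sars2, for serine, was the one mitochondrial gene with every KO sample above every WT sample, at 27.71, 23.38 and 18.44 CPM in the WT samples and 28.58, 29.69 and 30.24 CPM in the KO samples, and it did not pass an adjusted p of 0.05 (log2 fold change 0.35, SE 0.145, edgeR adjusted p = 0.0966). Without WT replicate 1, where WT was highest, its edgeR adjusted p was 0.0259. With any other sample left out Sars2 did not pass (edgeR adjusted p = 0.17 without WT replicate 2 and 0.0975 without WT replicate 3).

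Lars2, the mitochondrial leucine enzyme, on chromosome 9 at 123366927 to 123462675, behaved unlike any other synthetase. It was at 12050, 2413 and 3200 CPM in WT libraries 1 to 3 and at 5326, 5605 and 6774 CPM in KO libraries 1 to 3. WT replicate 1 was far above every other library and WT replicates 2 and 3 were below all KO libraries, so the groups overlapped. The log2 fold change was 0.003 with an SE of 0.539, the largest SE of the 36 genes (edgeR adjusted p = 0.997). It turned on single libraries, at 1.07 without WT replicate 1 (edgeR adjusted p = 0.0036), -0.38 without WT replicate 2 and -0.30 without WT replicate 3.

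The size of the Lars2 count was itself out of scale with the family. Lars2 took 1.25, 0.247 and 0.313% of all counts in WT and 0.526, 0.553 and 0.668% in KO, while the other 35 synthetases together took 0.256 to 0.276% in WT and 0.324 to 0.334% in KO. It was the most abundant row of WT replicate 1, held rank 16 and rank 5 in WT replicates 2 and 3, and held rank 3 in each KO library. Only 3 of its 50-base stretches (0.08%) occurred in transcripts of another gene, Gm15564. None of 10 ribosomal and other abundant noncoding RNA genes looked for beside it, such as Gm42418, AY036118 and mt-Rnr2, was in the table, and their part in the Lars2 count was not tested.

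**Figure D4:**
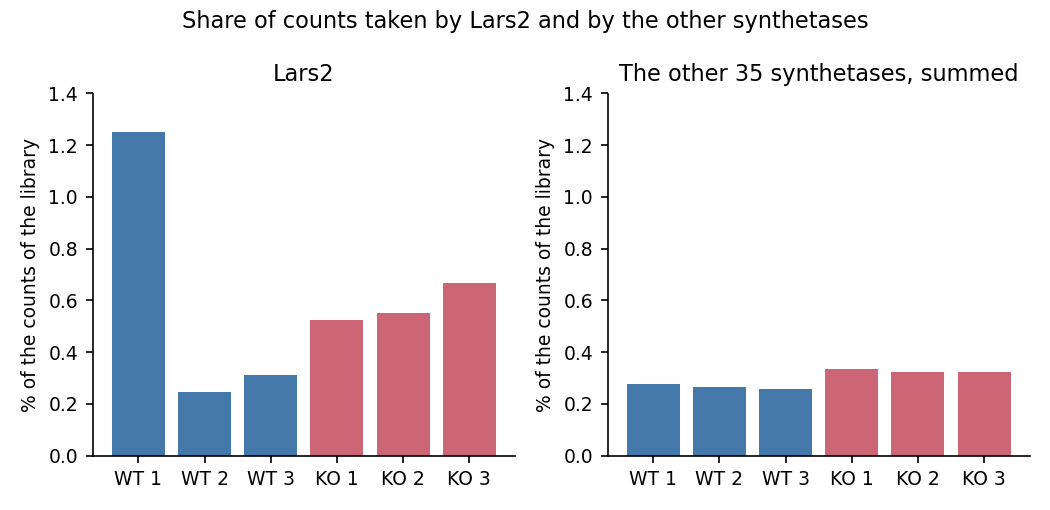
Percent of all counts of a library (y axis) taken by Lars2 on the left and by the other 35 synthetases together on the right, for the 6 libraries on the x axis. Lars2 ranges from 0.247 to 1.25% without separating WT from KO, while the other synthetases lie at 0.256 to 0.276% in WT and 0.324 to 0.334% in KO.

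The next comparison asked whether the balance of the compartments differed between genotypes for the same amino acid. For 16 pairs, the log2 ratio of the CPM of the cytosolic gene to that of its mitochondrial partner was computed in each sample, with Eprs set against both Ears2 and Pars2 and Farsa against Fars2. The ratio was higher in KO for 14 pairs, and for 13 pairs all KO samples were above all WT samples. These ratios are made from the same CPM values as the comparisons of single genes above, so they restate them by amino acid. No share over other gene pairs is given beside these counts. The median difference over the pairs was 0.72. By the exact two-sided permutation test each of the 13 had p = 0.1, the smallest p that 3 against 3 samples allow, and p = 0.123 after Benjamini-Hochberg adjustment over the 16 pairs, so no pair could pass 0.05.

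The largest difference was that of alanine. The log2 ratio of Aars to Aars2 was 2.37, 2.34 and 2.09 in WT and 3.36, 3.30 and 3.43 in KO, a difference of 1.10. For asparagine (Nars to Nars2) the ratio was 3.60, 3.59 and 3.57 in WT and 4.89, 4.34 and 4.71 in KO, a difference of 1.06. For cysteine, the ratio of Cars to Cars2 lay around 0 in WT (-0.22, 0.04 and -0.08) and above it in KO (0.97, 0.81 and 0.73). For threonine, that of Tars to Tars2 was below 0 in WT (-0.29, -0.37 and -0.62) and above it in KO (0.25, 0.22 and 0.34). These signs are on the CPM scale, which does not correct for transcript length, and the change between genotypes does not depend on it.

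The pairs that did not separate were those of phenylalanine, serine and leucine. The log2 ratio of Farsa to Fars2 differed by 0.11 between KO and WT (exact permutation p = 0.5), that of Sars to Sars2 by -0.09 (exact permutation p = 0.8) and that of Lars to Lars2 by -0.06 (exact permutation p = 1). The leucine pair had ratios from -7.22 to -4.99 in WT, a range set by Lars2.

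**Figure D5:**
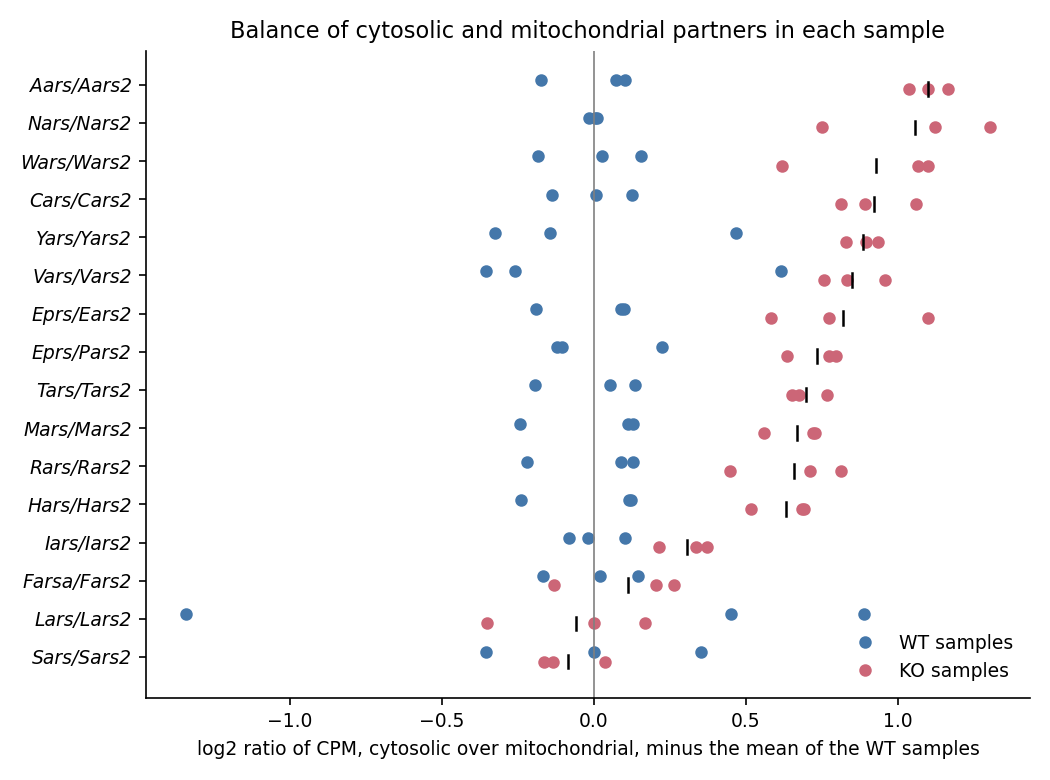
Log2 ratio of the CPM of a cytosolic synthetase to that of its mitochondrial partner in each sample, minus the mean of the WT samples of that pair (x axis), for 16 pairs (y axis). Points are samples, WT in blue and KO in red, and the black tick is the KO mean; in 13 pairs every red point lies to the right of every blue point, with the largest difference, 1.10, for Aars and Aars2.

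Genes that work with the synthetases were described from fixed lists, against the same background shares. By edgeR these were 11.9% of all genes called higher and 12.5% called lower. At an adjusted p under 0.05 they were 19.2% higher and 19.4% lower. Of the 3 scaffold genes of the multi-synthetase complex, 0 rose and 1 fell by edgeR and by DESeq2. Aimp1 fell from 55.44 ± 4.1 to 41.19 ± 1.6 CPM (SD, n = 3, log2 fold change -0.43, edgeR adjusted p = 0.0052), and Aimp2 and Eef1e1 had log2 fold changes of -0.01 and 0.03. The 5 cytosolic elongation factor genes that carry charged tRNA to the ribosome and move the ribosome along had 0 members called and 0 at an adjusted p under 0.05 by edgeR and by DESeq2, with 1, Eef1b2, lower at an unadjusted p under 0.05 and a median log2 fold change of 0.06. Eef1a1, the main carrier of charged tRNA, ranged from 9319 to 11070 CPM across WT and from 10200 to 10790 CPM across KO.

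On the mitochondrial side, 1 of 6 translation factors rose and 1 fell at an adjusted p under 0.05. The elongation factor Gfm1 rose by log2 0.57 (SE 0.095, edgeR adjusted p = 0.00269) and the initiation factor Mtif2 fell (log2 fold change -0.33, SE 0.077, edgeR adjusted p = 0.0113). Of the 4 genes for amidation of the mitochondrial glutamine tRNA and formylation of the methionine tRNA (Gatb, Gatc, Qrsl1 and Mtfmt), 0 passed by edgeR, by DESeq2 or at an unadjusted p under 0.05, with a median log2 fold change of -0.13. Of 8 genes that mature or modify tRNA, Trmu, which thiolates mitochondrial tRNA, was called lower (log2 fold change -0.64, SE 0.147, edgeR adjusted p = 0.0107). Hsd17b10, a subunit of the mitochondrial RNase P, also fell (log2 fold change -0.56, SE 0.097, edgeR adjusted p = 0.00316), and the other 6 did not pass. Among 6 genes that remove wrongly charged or stalled tRNA, the deacylase Dtd1 fell (-0.49) and its relative Dtd2 rose (0.55), with edgeR adjusted p = 0.0084 and 0.0182.

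The list of uncharged-tRNA sensing and ATF4 response genes had 11 members in the table, of which 3 were called higher (2 by DESeq2) and 0 lower by either tool or at an unadjusted p under 0.05, and the median log2 fold change was 0.33. Of all genes, 11.9% were called higher by edgeR. Asns, asparagine synthetase, rose from 9.263, 9.164 and 4.386 CPM in the WT samples to 23.7, 27.18 and 22.81 CPM in the KO samples (log2 fold change 1.69, SE 0.267, edgeR adjusted p = 0.00209). Psat1, an enzyme of serine synthesis, had 94.78, 101.7 and 58.58 CPM in the WT samples and 138.9, 128.8 and 137.6 CPM in the KO samples (log2 fold change 0.67, SE 0.185, edgeR adjusted p = 0.0234). Phgdh rose without overlap but did not reach the fold cutoff (log2 fold change 0.40, SE 0.112, edgeR adjusted p = 0.0243). Chac1 was called at under 1 CPM (edgeR adjusted p = 0.0895). By contrast, Atf4 itself (155.4, 156.8 and 219.9 CPM in the WT samples, 190, 200.5 and 201.8 CPM in the KO samples), Ddit3, Trib3 and the sensor gene Eif2ak4 had overlapping groups and did not pass. WT replicate 3 stood out in this list, with 706.3 CPM of Ppp1r15a against 158 and 155.1 CPM in WT replicates 1 and 2.

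Amino acid carriers were mixed. Slc7a5, the transporter of large neutral amino acids, was called higher (104.2, 102 and 69.12 CPM in the WT samples, 147.6, 148.4 and 148.4 CPM in the KO samples, log2 fold change 0.69, SE 0.147, edgeR adjusted p = 0.00784). Its partner chain Slc3a2 had a log2 fold change of 0.21 (SE 0.097) that did not pass. Slc43a1 was called lower (log2 fold change -0.76, SE 0.119, edgeR adjusted p = 0.00206) and Slc7a6 fell by 0.41 on the log2 scale, and the other 6 of 10 did not pass.

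Genes of cell division were also higher in KO. All 11 proliferation genes were called higher in KO, at a median log2 fold change of 1.80 and a sum of 860 to 1620 CPM in WT and 4350 to 4540 CPM in KO. Of all genes, 11.9% were called higher. Mki67 had 441.4, 445.1 and 199 CPM in the WT samples and 1568, 1549 and 1507 CPM in the KO samples, with the lowest value in WT replicate 3. Among the called synthetases, WT replicate 3 was also lowest for Aars, Gars, Yars and Nars, but it was the highest WT sample for Wars. It was the highest WT sample for Vars too, which was not called. The part of proliferation in the synthetase levels was not tested.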

How the data were processed

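Bulk RNA-Seq libraries of sorted Tregs, 3 WT and 3 KO, were grouped by the genotype in their labels. The study's methods give SOAPnuke for read filtering, HISAT2 for alignment to mm10 with a single alignment kept per read, and StringTie for quantification. The authors deposited whole-number counts per gene without normalization. How these counts were made, the annotation and the use of strand are not given in the sources used here, so overlapping genes and near-identical copies are named as uncertain. The smallest row sum was 60, so low genes had been removed before deposition.

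Counts were tested with edgeR 4.0.16 in R 4.3.3 (filterByExpr with a minimum count of 10, TMM, glmQLFit and glmQLFTest, two-sided, no covariate), with Benjamini-Hochberg adjustment over 13594 genes. The SE is the log2 fold change divided by the square root of F. "Called" means a fold above 1.5, p under 0.05 and adjusted p under 0.1. Rows of one symbol (29 duplicates) were kept apart. Transcript lengths, GC content and shared 50-base stretches came from GENCODE M21 (99.23% of rows matched), positions and promoters from RefSeq (GRCm38.p6). Pair ratios were compared by exact permutation.

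The members and lists were chosen with earlier results of these data known. Values in every sample are given for called genes, Lars2, the 3 highest genes per length in each compartment, genes with overlapping groups and an absolute log2 fold change above 0.3, and genes with an adjusted p under 0.05 in the mitochondrial set; the last were added after values were seen. One motif and one gene list are not reported here. The procedure was tested on simulated data in which a far smaller share of genes changed than was called here. The simulated folds were also larger than that of any synthetase, so this test does not give the error rate in these data. No replicates were as alike as counting error alone would make them, but the KO libraries were closer to each other than the WT libraries. The median ratio of the squared difference to its counting error was 5.316 to 6.285 between KO libraries and 10.47 to 30.53 between WT libraries. Whether the KO samples were separate mice cannot be told from this. Same-numbered WT and KO samples did not deviate together (correlations of 0.038, 0.04 and -0.012). The main fit used no pairing, but these correlations cannot show whether same-numbered samples were prepared together, which the labels do not state. Alternatives were RLE scaling, library totals alone, DESeq2 1.42.0, other filters and cutoffs, a replicate block, GC and length offsets, and leaving out each sample.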

Additional observations from a re-analysis of the deposited data

How the results depend on the processing

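Of 36 synthetases, 18 of 20 cytosolic and 12 of 16 mitochondrial genes kept the direction of their log2 fold change in every setting tried. The exceptions lay near 0 or were Lars2. Farsa, Farsb and Yars2 changed sign only when a sample was left out (ranges -0.11 to 0.003, -0.095 to 0.001 and -0.24 to 0.027). Iars2 was -0.036 with library totals alone and -0.072 with GC and length offsets (-0.016 to 0.02 with a sample left out), and Lars2 was -0.052 and -0.031 under the same settings (-0.38 to 1.07). Wars2 was 0.011 with RLE scaling, 0.012 with DESeq2 and 0.004 with at least 10 counts in every sample (-0.15 to 0.075).

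At the fold cutoff, the count of synthetases called was 5, and 4 to 6 with a sample left out, of which 4 to 5 were cytosolic and 0 to 1 mitochondrial (Lars2 without WT replicate 1, Nars2 without KO replicate 2). It was 20 (16 cytosolic, 4 mitochondrial) with no fold cutoff and 3, all cytosolic, with glmTreat, for which the counts of all genes were 5244 and 1686 against 3318. With no fold cutoff, the cytosolic genes that rose were 15 to 17 in the fits on all samples and 10 to 17 with a sample left out, 10 of them without KO replicate 1, and none fell in any fit. Of all genes, 17.2 to 21.9% rose in the fits on all samples. With a sample left out 13.5 to 26.6% rose, 13.5% without KO replicate 1. The mitochondrial genes that fell were 4, or 3 with RLE scaling, with at least 10 counts in every sample and with the replicate block. They were 6 with GC and length offsets and 2 with offsets fitted robustly. With a sample left out they were 2 to 7, namely 7 without WT replicate 3 and 2 when KO replicate 1 or either other WT replicate was left out. Of all genes, 23.7% fell with GC and length offsets and 17.7% with robust offsets. Without WT replicate 3, 25.1% fell, against 12.7 to 17% with any other sample left out, so the share over all genes moved as well. Mitochondrial genes that rose were 1 with robust offsets, 2 without WT replicate 1 and 0 in the other fits. These directional counts and the robust offsets were added after the data were seen. The adjusted p was under 0.05 in all 15 fits that tested for any change, glmTreat thus left out, for 9 cytosolic genes (Aars, Cars, Gars, Hars, Kars, Mars, Nars, Wars and Yars) and 2 mitochondrial genes.

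The median log2 fold change of cytosolic genes was 0.38 with library totals alone, 0.34 with GC and length offsets, and 0.35 to 0.44 with a sample left out, against 0.42; that of mitochondrial genes was -0.15 with offsets fitted robustly and between -0.27 and -0.20 in every other setting, against -0.21. The median of all genes moved to -0.07, -0.09 and 0.01 with library totals, offsets and robust offsets. The median difference over pairs was 0.71 to 0.75 with a sample left out, fits that were also added after the data were seen. With mean transcript lengths, the median cytosolic level was 105 TPM instead of 90.5 TPM over the 6 samples. With the replicate number as a block, 3190 genes and the same 5 synthetases were called, and 15 cytosolic genes rose and 3 mitochondrial genes fell at an adjusted p under 0.05.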

Other observations

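The 13 mRNAs of the mitochondrial genome, whose translation the mitochondrial synthetases serve, and Myc, a factor that reads the E-box, were looked at after the counts were seen. The mitochondrially encoded genes summed to 25100 to 33400 CPM in WT and 20700 to 24200 CPM in KO, and their log2 fold changes had a median of -0.41. By edgeR, 4 of 13 fell at an adjusted p under 0.05 (COX1, COX3, CYTB and ND4L), against 8 by DESeq2, and 1 was called lower at the fold cutoff (ATP8, 0 by DESeq2). The groups overlapped in ATP8. Over all genes 19.4% fell at that adjusted p by edgeR and 20.1% by DESeq2, and 12.5% were called lower by edgeR. None of the 13 had a higher value at an unadjusted p under 0.05. COX3 had 2596, 3322 and 3140 CPM in the WT samples and 2130, 2107 and 2187 CPM in the KO samples. Myc had 193.9, 203.3 and 186.7 CPM in the WT samples and 184.3, 189.1 and 187.2 CPM in the KO samples (log2 fold change -0.06, SE 0.063).

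ND6, which is encoded on the opposite strand of the mitochondrial genome from the others, was uneven in the same library as Lars2. It was at 9.97, 2.466 and 2.523 CPM in WT libraries 1 to 3 and at 3.394, 4.63 and 4.312 CPM in KO libraries 1 to 3, with WT replicate 1 far above all other libraries.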
